A study of Rattus norvegicus with 29 samples.

Results

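AMPA receptors are the ion channels that carry most fast excitatory transmission in the hippocampus. Each channel is built from 4 subunits, encoded by the genes Gria1, Gria2, Gria3 and Gria4. The array read these 4 genes, of 4737 genes with a probe set of their own, by 10 of its 8740 probe sets that are not controls. They were chosen by name, as every probe set whose single gene symbol in the platform annotation is one of the 4. Gria1 was read by 3 probe sets, Gria2 by 2, Gria3 by 2 and Gria4 by 3.

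As background, the subunits differ in what they give the channel. The Gria2 product, edited at a single site in its pore, makes a channel nearly closed to calcium, and channels without it let calcium in. The Gria1 product carries phosphorylation sites used in long-term potentiation. The Gria2 and Gria3 products share a short tail that is bound by scaffold proteins. The Gria4 product is found mainly in inhibitory interneurons and in the young brain. In CA1 pyramidal cells, channels of the Gria1 and Gria2 products and of the Gria2 and Gria3 products predominate.

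The study measured RNA of hippocampal CA1 tissue from male Fischer rats, with 1 Affymetrix rat genome U34 (A) array per sample. There were 9 young samples at 4 months, 10 mid-aged at 14 months and 10 aged at 24 months. Every group, the young included, had gone through 7 days of training and testing on tasks labelled SWM and OMT, with tissue collection 24 h later, so no group here is untrained. The labels do not state that each array holds the RNA of a separate rat, so each p-value reflects only the spread among the arrays, which may be technical. Signals are given as log2 of the deposited signal, after a small rescaling and with signals under 160.8 raised to that floor, so a difference of 1 is a 2-fold difference.

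The arrays called between 35.6% and 46.5% of the probe sets present. The neuronal gene Snap25, which encodes a protein of the synaptic vesicle fusion machinery, was called present on 29 of 29 arrays by each of its probe sets. The label CA1 could be checked only weakly. Of 8 markers listed for CA1 pyramidal cells, 2 are on the array, and Pou3f1, a transcription factor, was called present on 29 of 29 arrays while Slc17a7, a vesicular glutamate transporter, was called present on 0. Of the markers of dentate granule cells, Calb1 was called present on 29 arrays and Tdo2 on 0. Of the markers of CA3 pyramidal cells, Bok was called present on 29 and 25 arrays by its probe sets and Socs2 on 9, so the calls do not set CA1 apart from its neighbours. Markers of other cell types differed between ages. Of 10 listed microglial markers 3 were measured, and all 3 were higher in aged than in young samples, by log2 changes of 0.39 to 0.62. The 1 measured blood marker, Hbb, was higher by 1.30 (limma, adjusted p under 0.05 for each). Among all genes measured, 1.33% passed between these ages. Of the other lists, 1 of 6 oligodendrocyte markers was higher, and 0 of 8 astrocyte, 0 of 8 interneuron and 0 of 8 neuronal markers passed in either direction. Between mid-aged and young samples 1 of the 8 interneuron markers was lower, the neuropeptide Npy, by a log2 change of -0.39 (adjusted p = 0.0370, limma), and no marker of the other lists passed. Between aged and mid-aged samples no marker of any list passed. Their part in the subunit values was not tested. In tissue RNA, fewer cells of a type and less RNA per cell cannot be told apart. The deposited tables name their columns in a shorter or a longer style, which may mark a processing batch; what the style stands for is not stated. The shorter style holds 5 young and 4 mid-aged arrays and 0 aged arrays, and the longer style the other 4, 6 and 10.

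Detection differed among the subunits. Gria1 probe sets M36418_s_at and S56679_s_at, both Gria2 probe sets and Gria3 X54656_at were called present on every array of every age. Gria3 M36420_s_at was called absent on 1 aged array alone. Gria1 X17184_at had a present call on 7 of 9 arrays in the young, 9 of 10 in the mid-aged and 6 of 10 in the aged group.

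Gria4 lay near the limit of detection. Its probe set M36421_s_at had a present call on 3 of 9 arrays in the young, 5 of 10 in the mid-aged and 3 of 10 in the aged group. The second, S94371_at, had one on 5 of 9, 5 of 10 and 6 of 10. The third, S94371_g_at, was called absent on all 29 arrays. Both S94371 probe sets were designed from a splice form of the subunit that the platform description names 4c. Testing required a present call on 9 or more of the 29 arrays, and by this filter 9 of the 10 Gria probe sets were tested and S94371_g_at was not.

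**Figure D1:**
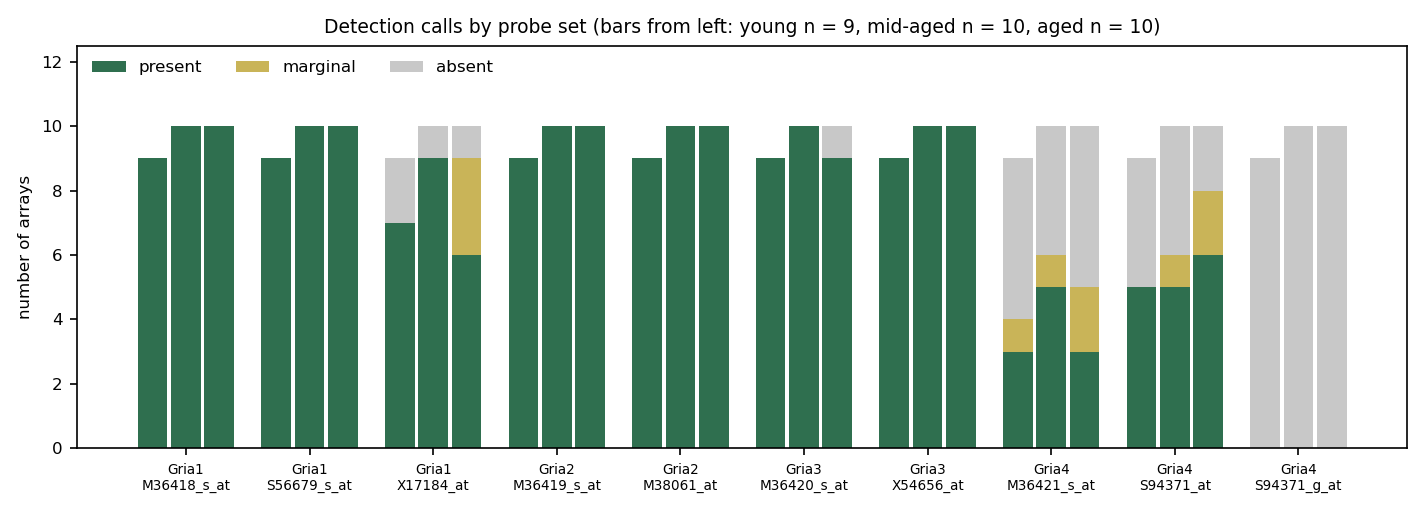
Number of arrays called present, marginal or absent for each Gria probe set, with 1 bar per age (young, n = 9; mid-aged, n = 10; aged, n = 10). Gria4 is the subunit with absent calls at every age on all of its probe sets, and S94371_g_at is absent on all 29 arrays.

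The main question was whether the AMPA receptor subunits differ in RNA level between ages. None of the 9 tested Gria probe sets passed the threshold of an adjusted p of 0.05 in any comparison (limma, Benjamini-Hochberg over all 3861 probe sets tested). Between aged and young samples 0 of 9 passed, where 1.66% of all tested probe sets did. Between mid-aged and young samples 0 of 9 passed against 0.414% of all, between aged and mid-aged samples 0 of 9 against 0.0518%, and in the F test over the 3 ages 0 of 9 against 1.32%. With so few calls among all probe sets, 0 of 9 is near the background and says nothing particular about these genes. At an unadjusted p under 0.05 there were also 0 of 9 in each comparison and in the F test. Of all probe sets 14.2% lay there between aged and young, 11.2% between mid-aged and young, 5.18% between aged and mid-aged and 11.2% in the F test. With only 9 probe sets, which share their arrays, 0 does not set these genes apart from those shares. In all 27 changes the groups of arrays overlapped. The median log2 change of the 9 was -0.01 from young to aged, beside -0.02 over all tested probe sets. It was 0.02 from young to mid-aged beside -0.02 over all, and -0.17 from mid-aged to aged beside -0.00079 over all, with 2 of the 9 above 0 in the last. The 9 share their arrays, so they are not 9 separate readings of a direction. From mid-aged to aged the 3 Gria1 probe sets changed by -0.25, -0.22 and -0.45. Without the array mid-aged 3 they changed by -0.09, -0.13 and -0.15.

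**Figure D2:**
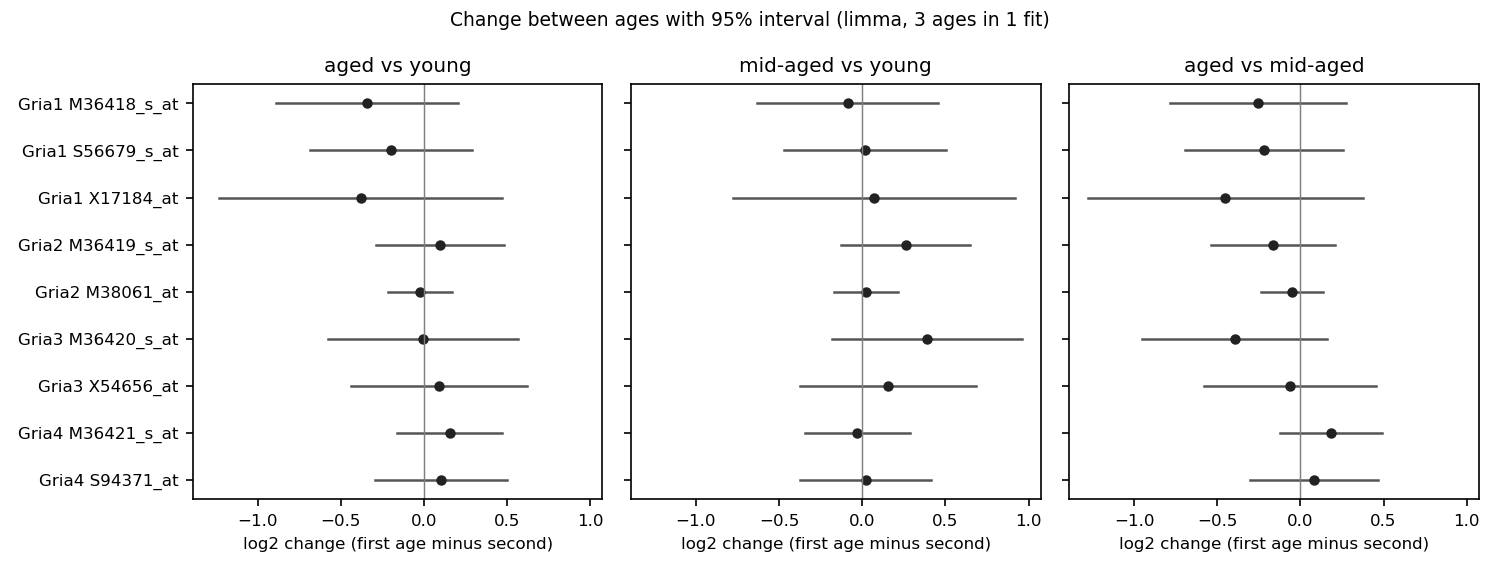
Log2 change of each tested Gria probe set between pairs of ages, as the first age minus the second (points), with 95% intervals from limma (lines). Every interval includes 0, and Gria2 M38061_at has the narrowest while Gria1 X17184_at has the widest.

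Gria1, the subunit phosphorylated in potentiation, had its lowest mean in the aged samples on each of its 3 probe sets, by differences smaller than the spread between arrays. On M36418_s_at the young arrays ran from 11.32 through a median of 12.86 to 13.32. The mid-aged arrays ran from 11.66 through 12.38 to 14.01, and the aged arrays from 11.43 through 12.45 to 12.93. The 4 young arrays numbered 6 to 9 and 2 mid-aged arrays lay above all aged arrays, and 1 of those mid-aged arrays, number 3, lay above all young arrays as well. The 3 ages overlapped over the rest of the range. The mean was 12.62 ± 0.66 (SD, n = 9) in young, 12.53 ± 0.66 (SD, n = 10) in mid-aged and 12.27 ± 0.54 (SD, n = 10) in aged samples. From young to aged the log2 change was -0.34 ± 0.27 (SE; 95% interval -0.89 to 0.20; adjusted p = 0.605, limma), with 8 of 10 aged arrays below the young median.

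The other Gria1 probe sets gave changes of the same sign from young to aged. S56679_s_at, designed from a partial mRNA of 462 nt, had a mean of 10.39 ± 0.49 (SD, n = 9) in young and 10.19 ± 0.69 (SD, n = 10) in aged samples. Its log2 change was -0.20 ± 0.24 (SE; adjusted p = 0.756, limma), though 6 of 10 aged arrays lay above the young median. X17184_at, the most variable, had a mean of 9.64 ± 0.87 (SD, n = 9) in young and 9.26 ± 0.93 (SD, n = 10) in aged samples, a change of -0.38 ± 0.42 (SE; adjusted p = 0.726, limma), and 1 aged array was at the floor. Its 95% interval, from -1.23 to 0.47, was the widest of the 9 in this comparison. In the mid-aged samples the 3 probe sets stood at -0.09, 0.02 and 0.07 from the young mean on the log2 scale, and without mid-aged 3 at -0.25, -0.07 and -0.23.

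From young to aged, the sign of the Gria1 change turned when only arrays of the longer column-name style were compared. Among the 9 young arrays, the 5 of the shorter style had a mean of 13.07 ± 0.19 (SD, n = 5) on M36418_s_at and the 4 of the longer style 12.05 ± 0.59 (SD, n = 4). The lowest shorter-style array, at 12.86, lay above the highest longer-style array, at 12.75. Gria3 X54656_at separated the young arrays in the same way, from 9.82 upward in the shorter style and up to 9.51 in the longer. All 10 Gria probe sets had the higher young mean in the shorter style, and the other 8 overlapped or met at the floor. How many of all probe sets did so was not counted, so this is not shown to be particular to Gria. The 10 also share their arrays, and young 4, of the longer style, was the lowest young array on 6 of them.

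Since the shorter style holds 0 aged arrays, aged and young can be compared within a style only in the longer. There the log2 change of Gria1 from young to aged was 0.22 on M36418_s_at, 0.20 on S56679_s_at and 0.24 on X17184_at, with adjusted p-values of 0.818, 0.849 and 0.877 (limma). When the fit of all arrays also held a term for style, the changes were 0.03, 0.06 and 0.08. From young to mid-aged, M36418_s_at stood at 0.34 in the longer style and at -0.33 in the shorter, with adjusted p-values of 0.964 and 0.617 (limma). On this probe set the styles did not separate the mid-aged arrays. These ran from 12.27 to 14.01 in the shorter style and from 11.66 to 12.96 in the longer. The array at 14.01 was mid-aged 3, and the other shorter-style ones lay at 12.27, 12.28 and 12.37. On Gria3 X54656_at the mid-aged styles overlapped too, from 9.17 to 11.55 in the shorter and from 8.83 to 10.10 in the longer. Whether Gria1 stood lower or higher in aged than in young samples thus depended on the arrays compared, and the part of the style was not tested.

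**Figure D3:**
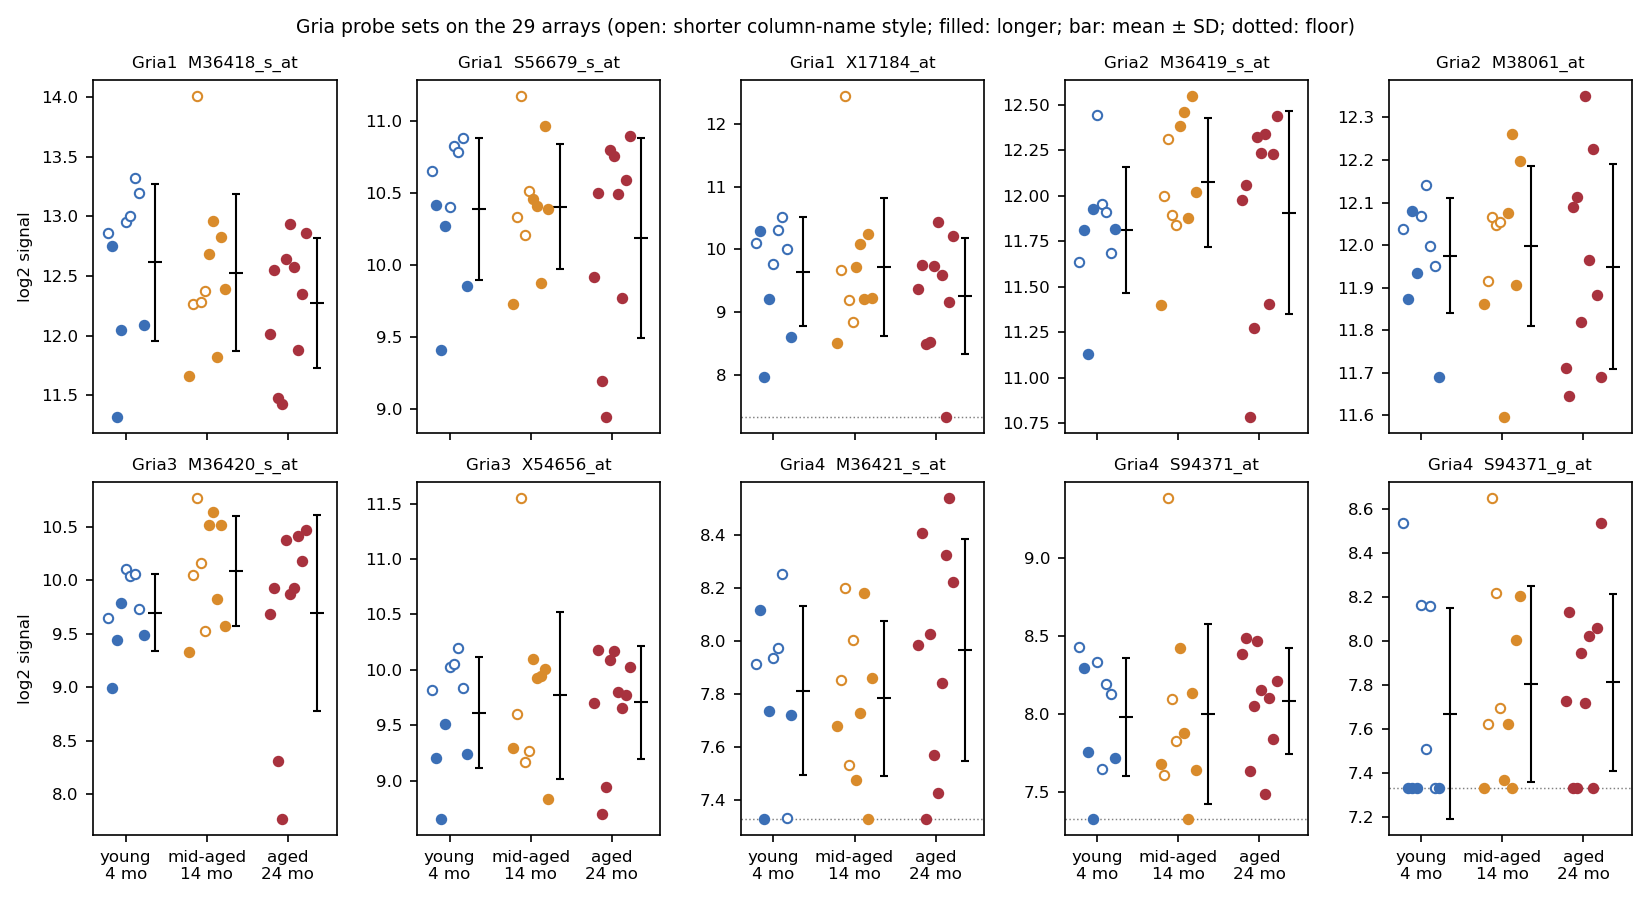
Log2 signal of the 10 Gria probe sets on each array, by age, with mean ± SD beside the points; open points are arrays of the shorter column-name style, filled points of the longer, and the dotted line is the floor. The ages overlap on every probe set, and on Gria1 M36418_s_at the 5 open young points lie above the 4 filled ones.

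Gria2, the subunit that sets calcium permeability, was read by probe sets that behaved differently. M38061_at, designed from an mRNA of 5787 nt, was the steadiest of the Gria probe sets. Its young arrays ran from 11.69 through 12.00 to 12.14, its mid-aged arrays from 11.60 through 12.05 to 12.26 and its aged arrays from 11.65 through 11.92 to 12.35. The 3 ages therefore lay on top of each other, with means of 11.98 ± 0.14 (SD, n = 9), 12.00 ± 0.19 (SD, n = 10) and 11.95 ± 0.24 (SD, n = 10). The log2 change from young to aged was -0.03 ± 0.09 (SE; adjusted p = 0.923, limma), and its 95% interval of -0.22 to 0.17 leaves room only for small changes of this signal.

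M36419_s_at, the other Gria2 probe set, ran from 11.13 through 11.82 to 12.44 on young arrays. The mid-aged arrays ran from 11.40 through 12.01 to 12.55, and the aged arrays from 10.79 through 12.15 to 12.44. Of the mid-aged arrays 9 of 10 lay above the young median, and 7 of 10 aged arrays did. The means were 11.81 ± 0.35 (SD, n = 9), 12.07 ± 0.35 (SD, n = 10) and 11.91 ± 0.56 (SD, n = 10). The log2 change was 0.26 ± 0.19 (SE; adjusted p = 0.643, limma) from young to mid-aged and 0.10 ± 0.19 (SE; adjusted p = 0.862, limma) from young to aged. Without the 6 arrays least like the rest, which are young 4, mid-aged 1 and 8, and aged 3, 4 and 8, the change from young to aged was 0.33 (adjusted p = 0.123, limma) and did not pass.

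Gria3, which pairs with the Gria2 product in a second class of channels, had its highest mean in mid-aged samples on both probe sets, which on X54656_at rested on 1 array. On M36420_s_at the young arrays ran from 8.99 through 9.73 to 10.11. The mid-aged arrays ran from 9.32 through 10.10 to 10.76, and the aged arrays from 7.77 through 9.93 to 10.47. On this probe set 5 mid-aged and 4 aged arrays lay above all young arrays, and 2 aged arrays, numbers 3 and 4, lay below all of them. The means were 9.70 ± 0.36 (SD, n = 9), 10.09 ± 0.51 (SD, n = 10) and 9.69 ± 0.92 (SD, n = 10), so the aged spread was the widest.

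The change of M36420_s_at was 0.39 ± 0.28 (SE; adjusted p = 0.642, limma) from young to mid-aged and -0.01 ± 0.28 (SE; adjusted p = 0.994, limma) from young to aged. Without the 6 arrays named above it was 0.49 from young to mid-aged (adjusted p = 0.161, limma) and 0.33 from young to aged (adjusted p = 0.339, limma). The other probe set, X54656_at, designed from an mRNA of 3033 nt, had means of 9.62 ± 0.50 (SD, n = 9), 9.77 ± 0.75 (SD, n = 10) and 9.71 ± 0.51 (SD, n = 10). Its changes were 0.15 ± 0.26 (SE; adjusted p = 0.864, limma) from young to mid-aged and 0.09 ± 0.26 (SE; adjusted p = 0.906, limma) from young to aged. Without mid-aged 3 the mid-aged mean of X54656_at was the lowest, at -0.04 from young to mid-aged and 0.13 from mid-aged to aged (adjusted p = 0.973 and 0.963, limma). Within the longer style X54656_at stood 0.55 higher in aged than in young samples (adjusted p = 0.451, limma).

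Gria4, the interneuron subunit, had signals close to the floor of 7.33 on the log2 scale, so its fold changes are compressed. On M36421_s_at the means were 7.81 ± 0.32 (SD, n = 9) in young, 7.78 ± 0.29 (SD, n = 10) in mid-aged and 7.97 ± 0.42 (SD, n = 10) in aged samples. On S94371_at they were 7.98 ± 0.38 (SD, n = 9), 8.00 ± 0.58 (SD, n = 10) and 8.08 ± 0.34 (SD, n = 10). The changes from young to aged were 0.15 ± 0.15 (SE; adjusted p = 0.700, limma) and 0.10 ± 0.19 (SE; adjusted p = 0.857, limma). The 95% intervals of these changes ran from -0.16 to 0.47 and from -0.30 to 0.50, so changes within these ranges remain possible. S94371_g_at sat at the floor on 5 of 9 arrays of the young, 2 of 10 of the mid-aged and 3 of 10 of the aged group, and no change is given for it.

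A shift in the make-up of the receptor could leave each subunit within its spread and still change the difference between subunits on the same array. The per-array difference in log2 signal was therefore compared between ages for each pair of subunits, by the brightest tested probe set of each. None of the 18 comparisons passed (two-sided exact permutation test, Benjamini-Hochberg over the 18). The smallest p was that of Gria1 less Gria3 between mid-aged and young samples. This difference was 2.44 ± 0.40 (SD, n = 10) in mid-aged and 2.92 ± 0.59 (SD, n = 9) in young samples, a change of -0.48 (exact permutation p = 0.0534, adjusted p = 0.414). For Gria1 less Gria2 the difference changed by -0.32 from young to aged (exact permutation p = 0.300, adjusted p = 0.674). Gria2 was read here by M38061_at alone, which did not follow M36419_s_at over the arrays (r = -0.29). Differences of other subunits with M36419_s_at were not compared, so the result holds for M38061_at only. The differences themselves mix the responses of separate probe sets, and only their changes can be read.

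Probe sets of the same gene were compared in the same way. Of 15 comparisons, 0 passed (exact permutation test, adjusted p = 0.899 in each). The smallest p was 0.178, for the Gria3 probe sets between aged and mid-aged samples.

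Although the ages did not separate, the arrays did, and most Gria probe sets moved together from array to array. After the mean of each age was subtracted, all 15 pairs among the 3 Gria1 probe sets, Gria2 M36419_s_at and the 2 Gria3 probe sets correlated over the 29 arrays. Pearson's r ran from 0.44 to 0.90 and Spearman's rho from 0.50 to 0.89 (permutation p adjusted over 36 pairs, at most 0.0337 for r and 0.0128 for rho). Without the 2 arrays farthest from the median, r ran from 0.54 to 0.90. Within the 20 arrays of the longer style r ran from 0.36 to 0.92, and within the 9 of the shorter style from 0.18 to 0.97. These pairs share their arrays, and probe sets of 1 gene share their transcript. How many pairs among all probe sets pass this test was not counted, so the joint movement is not shown to be particular to Gria. Over 2406 other genes, r with Gria1 M36418_s_at had a median of -0.06, and its highest 1% began at 0.71. With Gria3 M36420_s_at these values were -0.07 and 0.74, so some of the 15 pairs lay below the highest 1%.

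The probe sets of Gria1 followed each other closely. M36418_s_at correlated with S56679_s_at at r = 0.90 and rho = 0.89, and with X17184_at at r = 0.90 and rho = 0.88 (permutation p = 1e-05 each, the smallest that 100000 permutations can give; adjusted p = 6e-05). Between subunits, Gria1 M36418_s_at and Gria3 X54656_at correlated at r = 0.83 and rho = 0.82 (permutation p = 1e-05, adjusted p = 6e-05), with r = 0.74 without the 2 farthest arrays, 0.96 within the shorter and 0.75 within the longer style. Gria1 M36418_s_at and Gria2 M36419_s_at correlated at r = 0.72 and rho = 0.73 (permutation p = 1e-05 and 2e-05), with 0.74 without the 2 farthest arrays, 0.46 within the shorter and 0.86 within the longer style. The Gria3 probe sets correlated at r = 0.72 and rho = 0.70, with 0.68 without the 2 farthest arrays, 0.82 within the shorter and 0.78 within the longer style.

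Over the 29 arrays Gria2 M38061_at did not pass with any of them. Its 8 correlations with the other Gria probe sets ran from r = -0.29 to -0.03, and 0 of 8 passed (adjusted permutation p from 0.275). Their sign turned with the name style, from 0.16 to 0.41 within the shorter and from -0.46 to -0.11 within the longer style. With M36419_s_at, which is annotated to the same gene, it gave r = -0.29 and rho = -0.31 (permutation p = 0.176 and 0.128, adjusted p = 0.275 and 0.200), with -0.23 without the 2 farthest arrays, 0.41 within the shorter and -0.37 within the longer style. The Gria2 probe sets thus gave different accounts of which samples were high. No correlation passed for Gria4 M36421_s_at either, while S94371_at passed with 4 of the 7 probe sets of the other subunits, at most r = 0.65 with Gria1 M36418_s_at (rho = 0.53, permutation p = 0.00088, adjusted p = 0.00211), with 0.52 without the 2 farthest arrays, 0.80 within the shorter and 0.50 within the longer style. In the deposited series table the sign of S94371_at with all 3 Gria1 probe sets turned, to r = -0.064, -0.18 and -0.11, r with Gria3 X54656_at was 0.045, and none of the 4 passed.

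**Figure D4:**
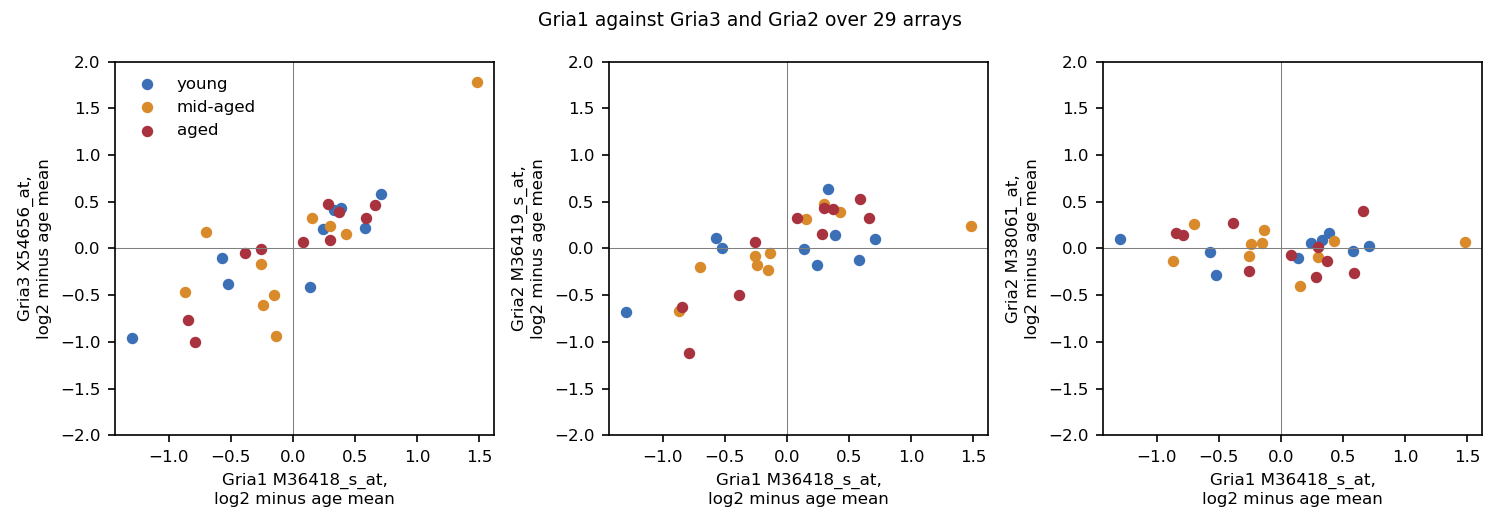
Departure of each of the 29 arrays from the mean of its age on Gria1 M36418_s_at (x axis, log2) against Gria3 X54656_at, Gria2 M36419_s_at and Gria2 M38061_at (y axes, log2), coloured by age. The first 2 panels rise with Gria1 (r = 0.83 and 0.72), and the third is flat (r = -0.07).

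Certain arrays were low or high on most of these probe sets. Over the 6 probe sets of Gria1, Gria3 and Gria2 M36419_s_at, young 4 was the lowest young array on 5 and mid-aged 1 the lowest mid-aged array on 5. Aged 4 was the lowest aged array on 3 of the 6, aged 3 on 2 and aged 8 on 1. In the other direction, mid-aged 3 was the highest mid-aged array on 8 of all 10 Gria probe sets, at 14.01 on Gria1 M36418_s_at, 12.44 on Gria1 X17184_at and 11.55 on Gria3 X54656_at. Young 4, mid-aged 1 and aged 3, 4 and 8 are also among the 6 arrays that correlate least with the rest over all tested probe sets, and mid-aged 3 is not. Without mid-aged 3, the change from young to mid-aged turned sign on Gria1 S56679_s_at and X17184_at, Gria3 X54656_at and Gria4 S94371_at, to -0.07, -0.23, -0.04 and -0.13, and was 0.32 on Gria3 M36420_s_at, with 0 of 9 Gria probe sets past the threshold (limma).

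**Figure D5:**
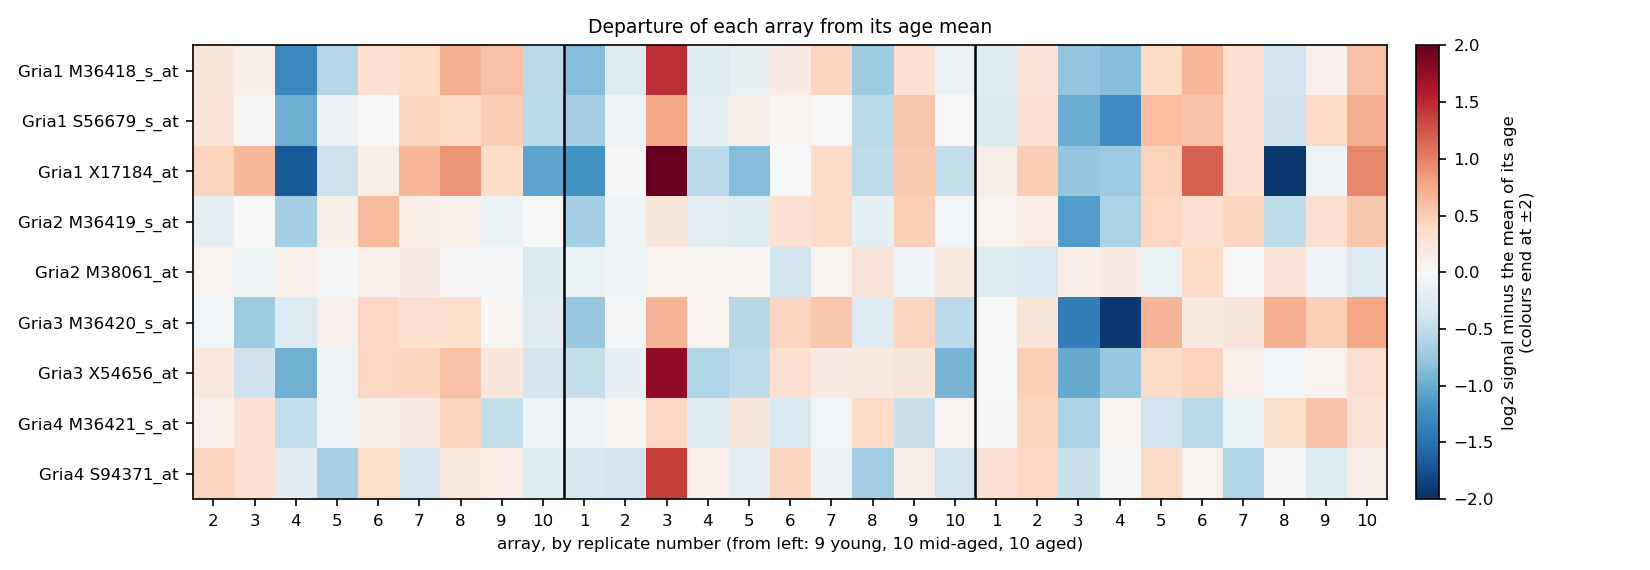
Departure of each array (columns, by replicate number) from the mean of its age for the 9 tested Gria probe sets (rows), in log2 units, red above and blue below. Young 4, mid-aged 1 and aged 3 and 4 are blue and mid-aged 3 is red over most rows, while the row of Gria2 M38061_at is pale throughout.

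A measure of RNA quality moved with some of these values. The control probe sets at the 3′ and 5′ ends of Gapdh give a log2 ratio that is higher where RNA is broken or copied short, and it was highest on aged 4, at 0.81, and aged 3, at 0.48. Of 18 correlations of Gria probe sets with this ratio or with the share of probe sets called present, 4 passed by Pearson's r after adjustment. Gria2 M36419_s_at fell with the Gapdh ratio at r = -0.65 and rho = -0.59 (permutation p = 0.00094 and 0.00145, adjusted p = 0.0169 and 0.0261), with r = -0.52 without the 2 farthest arrays, -0.71 within the longer and -0.27 within the shorter style.

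The other 3 passed by r and not by rho. Gria1 S56679_s_at and Gria3 M36420_s_at gave r = -0.57 and -0.60 with the Gapdh ratio (adjusted permutation p = 0.0277 each), but rho of -0.39 and -0.44 (adjusted p = 0.221 and 0.148). Without the 2 farthest arrays r was -0.34 and -0.27. Within the longer style it was -0.75 and -0.71, and within the shorter style it turned to 0.63 and 0.22. These relations were thus weaker without the 2 farthest arrays and had opposite signs in the 2 styles. Gria2 M38061_at correlated with the share of probe sets called present at r = 0.53 (rho = 0.44; adjusted permutation p = 0.0277 and 0.148), with 0.30 without the 2 farthest arrays, 0.44 within the shorter and 0.56 within the longer style. The Gapdh ratio was 0.10 higher in aged than in young samples, which did not pass (exact permutation p = 0.495), and the share called present was higher in aged samples by 2.15 percentage points (exact permutation p = 0.0390). With the Gapdh ratio as a covariate, Gria1 M36418_s_at stood at -0.27 and Gria2 M36419_s_at at 0.20 from young to aged, and 0 of 9 Gria probe sets passed (limma). The part of RNA quality in the shared movement was not tested.

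The genes whose values over the arrays were most like those of each subunit were found among 2406 other genes, by the brightest probe set of each gene and with age means removed. For Gria1 these were Wdfy1, an endosomal protein (r = 0.87), Lrrc7, a postsynaptic density protein also called densin (r = 0.84), and Gad2, an enzyme of GABA synthesis (r = 0.83). For Gria3 they were Ppp2r2c, a regulatory subunit of protein phosphatase 2A (r = 0.86), Clcn4, a chloride and proton exchanger (r = 0.85), and Syt1, the calcium sensor of vesicle release (r = 0.83). For Gria2, by M38061_at, they were Psma2, a proteasome subunit (r = 0.79), Txnl1, a thioredoxin-like protein (r = 0.78), and Rtn1, a reticulon (r = 0.77). For Gria4, by S94371_at, they were Sfxn1, a mitochondrial carrier (r = 0.84), Wdfy1 again (r = 0.67) and Hnrnpu, a nuclear RNA-binding protein (r = 0.66). This probe set lay near the limit of detection. On it mid-aged 3 stood at 9.38, where the highest aged array was at 8.49 and the highest young at 8.43. The likenesses were not computed without mid-aged 3. The highest 1% of all genes began at r = 0.71 for Gria1, 0.65 for Gria2, 0.74 for Gria3 and 0.54 for Gria4, and each likeness rests on the same 29 arrays.

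The genes that bind, move and modify the receptor were examined as 4 lists, each gene by its brightest tested probe set. Of all 2407 genes so measured, 1.33% passed between aged and young samples, with a median log2 change of -0.03. Of the auxiliary subunits and scaffolds, 13 of 40 listed genes were measured, and 0 were higher and 0 lower in aged than in young samples, with a median of 0.07. Nptx2, a pentraxin that clusters AMPA receptors, stood at -0.36 ± 0.10 (SE; adjusted p = 0.0730, limma). Cdh2, N-cadherin, stood at 0.43, Cnih2, an auxiliary subunit of the receptor, at -0.19, and Sdcbp, the scaffold syntenin, at -0.17 (adjusted p = 0.212, 0.369 and 0.380, limma). The postsynaptic scaffold Dlg4 (PSD-95) stood at 0.16 and Nsf, an ATPase that binds the Gria2 product, at 0.18 (adjusted p = 0.658 and 0.880, limma). Grip1, a scaffold of the Gria2 and Gria3 tails, was called present on 0 of 29 arrays. Homer1, named here after its values were seen, stood at -0.14 by its brightest probe set (adjusted p = 0.628, limma). Another of its probe sets, AB003726_at, stood at -0.68 in aged and -0.67 in mid-aged against young samples (adjusted p = 7.17e-04 and 0.00548, limma). Of all tested probe sets 1.66% and 0.414% passed in these comparisons. No alternatives were run for AB003726_at, so its dependence on name style or on single arrays is not known.

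Of the genes of receptor trafficking, endocytosis and editing, 20 of 35 were measured, 0 were higher and 1 was lower, with a median log2 change of 0.00. The 1 that fell was Arc, which speeds the endocytosis of AMPA receptors, from 12.93 in young to 12.38 in aged samples, a change of -0.55 ± 0.14 (SE; adjusted p = 0.0282, limma). Besides Arc, no gene of the receptor lists passed by its brightest probe set in this comparison, where 1.33% of all 2407 genes did. This 1 gene is thus near the background and does not set the lists apart. Arc passed under 36 of 45 alternatives. Among the exceptions, leaving out the 6 arrays named above gave -0.34 (adjusted p = 0.122), a term for name style gave -0.52 (adjusted p = 0.0910) and the longer style alone gave -0.52 (adjusted p = 0.314, limma). Akap5, which anchors kinases and phosphatases at the receptor, stood at 0.51, Bin1, a membrane-bending protein, at 0.21, and Rab11a, a GTPase of recycling endosomes, at -0.15 (adjusted p = 0.309, 0.268 and 0.550, limma). The signal of Akap5 was low, with means of 8.19 in young and 8.71 in aged samples. Adarb1, the enzyme that edits the Gria2 transcript, stood at -0.08 ± 0.19 (SE; adjusted p = 0.890, limma); the extent of editing is not read by this array.

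Of the kinases and phosphatases that act on the receptor, 24 of 39 were measured and 0 passed in either direction, with a median of 0.04. Ppp3ca, a calcineurin catalytic subunit, stood at 0.41 ± 0.17 (SE; adjusted p = 0.268, limma) and at -0.11 within the longer style. Camk2d stood at 0.23, Ppp1ca, a catalytic subunit of protein phosphatase 1, at 0.15, and Rasgrf1, an exchange factor for Ras, at -0.41 (adjusted p = 0.442, 0.512 and 0.615, limma). Camk2a, the kinase of Gria1 in potentiation, stood at -0.00048 ± 0.28 (SE; adjusted p = 0.999, limma).

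Of the other ionotropic glutamate receptor subunits, 8 of 15 were measured and 0 passed, with a median of 0.15. Grik1, a kainate receptor subunit, stood at 0.38 ± 0.11 (SE; adjusted p = 0.0953, limma) and Grin2c, an NMDA receptor subunit, at 0.40 ± 0.13 (SE; adjusted p = 0.0989, limma). Grik2 stood at 0.20 and Grik5 at -0.19 (adjusted p = 0.588 and 0.558, limma). Between mid-aged and young samples 0 genes of the 4 lists passed by their brightest probe sets, where 0.332% of all genes did, and between aged and mid-aged samples 0 passed, as did 0 of all 2407 genes. The neuronal marker Snap25 stood at -0.09 from young to aged (adjusted p = 0.842, limma).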

How the data were processed

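RNA of 29 samples was measured on 29 arrays. The authors deposited 1 table per array with a signal and a detection call for each of 8799 probe sets, per the file headers; the software and its version are not given in the sources used here. The deposited signal of each array had been scaled so that the mean, trimmed by 2% at each end, is nearly equal on all arrays. A second deposited table holds 1 intensity per probe set and array, partly below 0, whose scaling and centring are not stated in the sources used here. By rank, all 29 columns correlated best with the array they are named for; the table was used as an alternative. A further 1 signal column, which names another sample than its table's, was not used.

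Control probe sets (59) were dropped, and arrays were brought to a common trimmed mean (factors of 0.999 to 1.00). Signals were raised to a floor of 160.8, the median of absent-called values, and log2-transformed. The 3861 probe sets with a present call on 9 or more of the 29 arrays were fitted over the 3 ages with limma 3.58.1 in R 4.3.3, and p-values were adjusted by Benjamini-Hochberg over all of them, with a threshold of 0.05. Differences between probe sets were compared by two-sided exact permutation over all 92378 or 184756 groupings, and correlations by 100000 permutations within ages. Tables and figures were made with Python 3.11.15, pandas 2.3.3, numpy 2.4.6 and matplotlib 3.10.9. The steps were tested on simulated data. The number of arrays limits the precision. The study's files name no genome build, so the coordinates of the RefSeq gene table, which is of build GRCr8, are not printed.

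Named genes are all Gria probe sets, up to 4 genes of smallest p aged vs young in each of the 4 lists and any list gene past the threshold, the 3 genes most like each subunit, and Snap25, Camk2a, Dlg4, Grip1, Pick1, Nsf, Arc and Adarb1 (Pick1 has no value here). The members and lists were chosen with earlier results of these data known.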

Additional observations from a re-analysis of the deposited data

Results flagged for a closer look

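In 2 of the 30 sets of arrays (10 probe sets at 3 ages), 1 array lay far from the others of its age, by a gap that Dixon's test allows by chance in about 1 of 20 sets. Both were mid-aged 3. On Gria1 X17184_at it stood at 12.44 on the log2 scale, with the next mid-aged array at 10.24. On Gria3 X54656_at it stood at 11.55, with the next at 10.10. The array was called present for both probe sets, and it is not among the 6 arrays least like the rest.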

How the results depend on the processing

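The count of Gria probe sets past the threshold was 0 under every alternative run for each pair of ages and for the F test, as was the count of changed differences between subunits or between probe sets of 1 gene. Over 1215 log2 changes of the 9 tested Gria probe sets under alternatives, 0 passed and 87 had the opposite sign to the reported one. The smallest adjusted p was 0.123 (limma), for Gria2 M36419_s_at aged vs young without the 6 arrays least like the rest. Counts over all probe sets moved more: aged vs young gave 64, 16 in the longer name style alone and 326 with array weights; mid-aged vs young gave 16, from 0 to 87; aged vs mid-aged gave 2, from 0 to 4; and the F test gave 51, from 10 to 210. Leaving out each array in turn gave 52 to 84 for aged vs young, 8 to 22 for mid-aged vs young, 0 to 4 for aged vs mid-aged and 39 to 56 for the F test. Whether the replicate numbers pair the samples was not settled. Of 28 same-numbered pairs 13 correlated above 0.1, with r from -0.20 to 0.58. Differently numbered pairs were not compared, so these values cannot decide it. With the replicate number as a block (replicate block) 0 Gria probe sets passed, and 84 of all did so aged vs young and 29 mid-aged vs young. The alternatives for correlations were chosen after seeing the data. In the deposited series table, Gria4 S94371_at no longer correlated with Gria1: r was -0.064 with M36418_s_at, -0.18 with S56679_s_at and -0.11 with X17184_at, and the cause was not tested. The 36 correlations were each counted once per alternative. Of these results 268 stayed the same and 3 were reversed, which are those just given. A further 37 no longer passed, 19 of them in the 9 arrays of the shorter style, and 8 newly passed. With a floor at the 75th percentile Gria4 M36421_s_at was at the floor on all arrays and gave no value. Signal near background limits Gria4, and the spread between arrays limits Gria1.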
